A study of Homo sapiens with 12 samples.

Results

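The data compared here came from U2OS, a human osteosarcoma line, in a Tet-On version that switches on a chosen gene when doxycycline is added. Of 12 RNA-seq samples in the series, 6 entered the comparison: 3 biological replicates of cells induced to make the R109K form of HA-tagged E2F1 and 3 of cells with the empty pTRE vector, taken by their count files and labels. In R109K, the arginine of E2F1 that gives the line its name is replaced by lysine, so that the residue which PRMT1 methylates is absent. Both lines grew under the same drug selection and both received doxycycline at 1 ug/ml for 24 hours, so the pTRE samples are controls for the drug as well as for the vector. The remaining 6 samples, 3 of WT E2F1 and 3 of KK, in which arginines 111 and 113 are lysines, were treated alike and served here only to show where R109K differed. Each condition was 1 stable line, and whether a line was 1 clone is not given in the sources used here. The E2F1 form and any other difference between the lines therefore cannot be told apart, and no sample without doxycycline was compared.

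E2F1 is a transcription factor that binds DNA with a DP partner. In resting cells the retinoblastoma protein holds it inactive, and release in late G1 turns on genes for DNA synthesis and for entry into S phase. E2F1 is also known for inducing TP73 and other genes of cell death, and the choice between growth and death has been linked to arginine methylation by PRMT1 at the residue replaced in R109K and by PRMT5 at residues 111 and 113. The comparison addresses which transcripts move when E2F1 without this arginine is induced.

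The replaced codon and its neighbourhood are shown because this base triplet defines the construct. It lies in exon 2 of 7 of E2F1, on the minus strand of GRCh37 (the build of the alignments) at chr20:32268133-32268177, and the capitals mark the codon replaced in R109K, in the reference gene.
E2F1, replaced codon: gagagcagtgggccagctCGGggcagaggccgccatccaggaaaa
The counts were made per gene and do not tell the codons of the construct from those of the cells' own gene.

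E2F1 itself was the first check of the labels. Values of single samples are given throughout in the order of replicates 1, 2 and 3, as CPM, read counts scaled to a common library size after TMM normalization. E2F1 stood at 1283, 1259.8 and 932 CPM in R109K and 89.2, 82.9 and 101 CPM in pTRE, so every R109K sample was far above every pTRE sample. The log2 fold change was 3.67 ± 0.20 (± standard error, here and for all log2 values) by edgeR's quasi-likelihood test (adjusted p = 1.52e-08, over 16625 tested genes). The WT samples held 2315, 1650.2 and 1469 CPM, all above the R109K samples, and the log2 difference of R109K from WT was -0.65 ± 0.20 (edgeR adjusted p = 0.0577). In KK the values were 1359.6, 1478 and 1112 CPM, which overlapped those of R109K, with a log2 difference of -0.18 ± 0.20 (edgeR adjusted p = 0.773). The DP partner TFDP1 had a log2 fold change of 0.40 ± 0.08 (edgeR adjusted p = 0.0131), and the retinoblastoma gene RB1 had one of 0.58 ± 0.27 (adjusted p = 0.0399).

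Reads on genes numbered 24253265 to 28002770 in pTRE and 24582045 to 31040903 in R109K, and WT replicate 2 stood apart with 11500537. Of its reads 58.7% fell on no gene, against 23.6% to 29.6% in the other 11 samples. The labels call the cells epithelial osteosarcoma cells. The summed level of 10 mesenchymal and osteoblast markers was 6965 to 8293 CPM in pTRE and 3858 to 3880 CPM in R109K, where 1 marker, COL1A2, was under 1 CPM in every sample. The sum of 8 epithelial markers was 786 to 976 CPM in pTRE and 530 to 620 CPM in R109K. Of 8 haematopoietic markers 7 were under 1 CPM in every sample of both lines, and CD34 carried their sum of 6.69 to 9.04 CPM in pTRE and 16.6 to 19.9 CPM in R109K. The sum of 5 endothelial markers was 3.71 to 5.28 CPM in pTRE and 2.27 to 2.37 CPM in R109K, and that of 6 neuronal markers was 122 to 134 and 142 to 161 CPM. Of the neuronal markers only RBFOX3 was higher in every R109K sample than in every pTRE sample. The part of these marker sums in the gene lists described here was not tested. In bulk RNA, fewer cells with a transcript and less of it per cell cannot be told apart.

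More transcripts rose than fell in R109K. At an adjusted p under 0.01, 1666 of 16625 tested genes (10.0%) were higher in R109K and 1202 (7.23%) were lower. With the added requirement of a change greater than 2-fold, which defines up- and down-regulation here, 771 were up-regulated (4.64%) and 425 down-regulated (2.56%). These shares are the background against which each gene list below is read, and the median log2 fold change of all tested genes was 0.00. Replicates of the 2 lines did not overlap for any of the 1196 regulated transcripts; over all tested genes, 24.3% were higher and 22.9% lower in R109K without overlap. Up-regulated transcripts often started low: their median level was 2.73 CPM in pTRE and 9.18 CPM in R109K, and 240 of them (31.1%) were under 1 CPM in pTRE, against 14.4% of all tested genes. Down-regulated transcripts went from a median of 12.7 CPM in pTRE to 4.81 CPM in R109K. Without R109K replicate 1, the lower transcripts numbered 701, without R109K replicate 2 they numbered 759, and without pTRE replicate 3 they numbered 793.

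Among transcripts with a mean count of at least 50, the 15 largest rises ran from FA2H to RASGEF1B and included E2F1 itself. FA2H, the hydroxylase that makes 2-hydroxy fatty acids for sphingolipids, read 8.88, 8.54 and 7.17 CPM in R109K and 0, 0.19 and 0.0735 CPM in pTRE, and its log2 fold change was 6.44 ± 0.55 (edgeR adjusted p = 1.33e-08). GRIK3, a subunit of kainate-type glutamate receptors, read 6.29, 3.96 and 5.24 CPM in R109K and 0.0826, 0.228 and 0.0367 CPM in pTRE (log2 fold change 5.42 ± 0.53). SYK, a tyrosine kinase best known from immune receptors, read 6.48, 5.85 and 5.12 CPM in R109K and 0.33, 0.304 and 0.257 CPM in pTRE (log2 fold change 4.28 ± 0.23). In all 3 the lowest R109K sample lay many times above the highest pTRE sample. HS6ST3, a heparan sulfate 6-O-sulfotransferase, read 5.02, 4.36 and 4.38 CPM in R109K and 0.124, 0.19 and 0.147 CPM in pTRE (log2 fold change 4.85 ± 0.30). Rises of genes already readable in pTRE included TMEM132E, a transmembrane protein, at 64.9, 55 and 55.9 CPM in R109K and 3.22, 3.8 and 3.56 CPM in pTRE (log2 fold change 4.05 ± 0.12). ABCG2, a drug efflux transporter, read 60.8, 53.6 and 50.3 CPM in R109K and 4.54, 4.29 and 4.7 CPM in pTRE (log2 fold change 3.6 ± 0.19). CMPK2, a mitochondrial nucleotide kinase, had a log2 fold change of 3.81 ± 0.28. SPHKAP, ZBTB8B, C7orf57, SYT10, NXPH3, MAGEB17 and RASGEF1B completed the 15 largest rises, with log2 fold changes between 3.4 (RASGEF1B) and 5.41 (SPHKAP).

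By the same rule among down-regulated transcripts, the 15 largest falls ran from LUM to HOXD11. LUM, the matrix proteoglycan lumican, read 0.194, 0.472 and 0.287 CPM in R109K and 4.75, 2.89 and 5.51 CPM in pTRE, a log2 fold change of -3.77 ± 0.54 (edgeR adjusted p = 3.18e-05). IGFBP5, a binding protein of insulin-like growth factors, read 9.46, 8.47 and 13.6 CPM in R109K and 111, 95.5 and 94.4 CPM in pTRE (log2 fold change -3.26 ± 0.45). NTM, the cell adhesion protein neurotrimin, read 18.2, 22.2 and 30.9 CPM in R109K and 157, 153 and 181 CPM in pTRE (log2 fold change -2.79 ± 0.34). Each of these was lower in every R109K sample than in any pTRE sample, as that rule required. RUNX3, a transcription factor with a role in bone, read 1.94, 1.2 and 1.51 CPM in R109K and 9.13, 9.61 and 10.9 CPM in pTRE (log2 fold change -2.66 ± 0.15). ACKR3, a scavenger receptor for CXCL12, read 1.78, 2.47 and 2.62 CPM in R109K and 12.4, 14.9 and 12 CPM in pTRE (log2 fold change -2.52 ± 0.29). CLDN4, a tight junction claudin, read 8.4, 7.63 and 9.54 CPM in R109K and 48.6, 34.8 and 56.5 CPM in pTRE (log2 fold change -2.45 ± 0.18). BST2, the antiviral protein tetherin, read 3.34, 5.2 and 5.36 CPM in R109K and 20.2, 18.6 and 30.5 CPM in pTRE (log2 fold change -2.32 ± 0.43). LRRC15, ZNF467, COL3A1, HOXD11, LINC00896, ALPP, OR51B5 and HBD completed the 15, with log2 fold changes between -3.42 (HBD) and -2.31 (HOXD11). Reads of ALPP cannot be divided with certainty from those of near-identical phosphatase genes. ALPP (adjusted p up to 0.0118 by edgeR) lost the call without pTRE replicate 3.

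**Figure D1:**
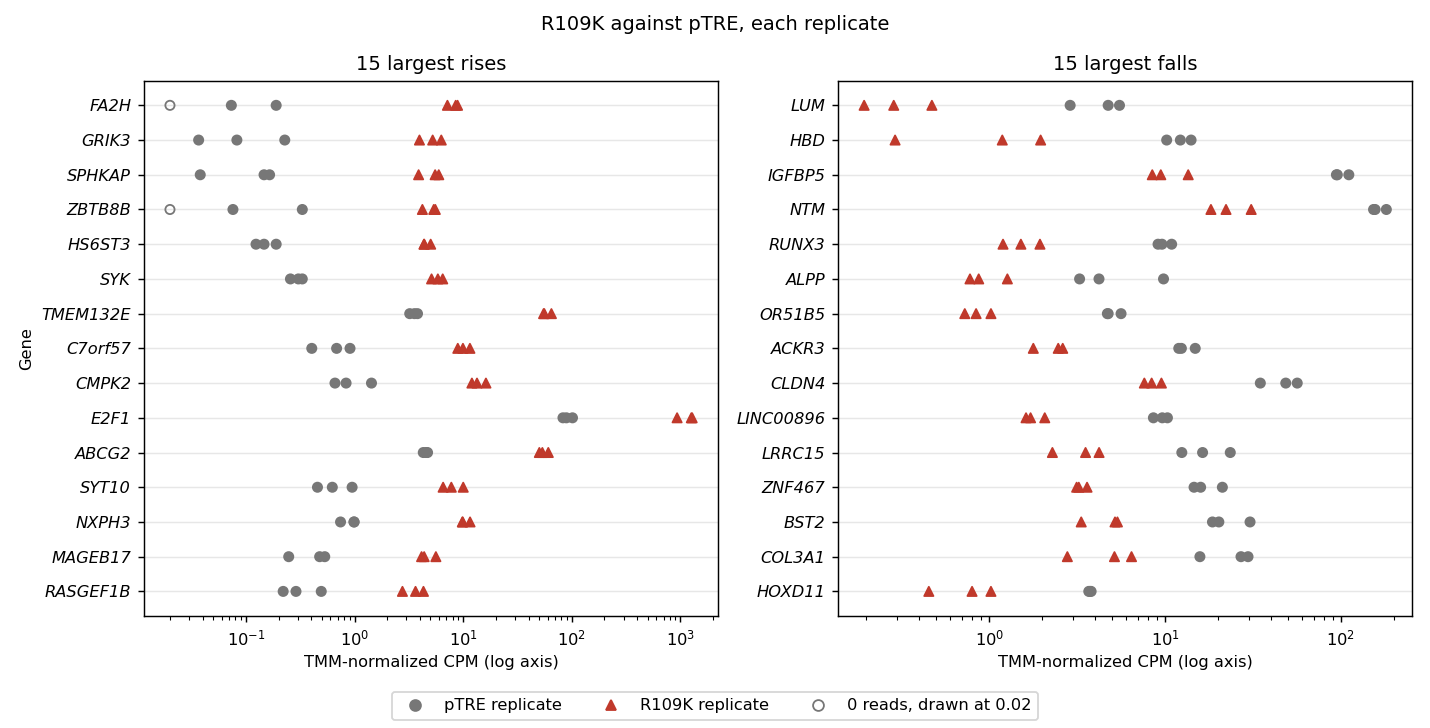
Levels of the 15 transcripts with the largest rises and the 15 with the largest falls in R109K at a mean count of at least 50, as CPM on a log axis with 1 point per replicate of pTRE and R109K; open points at 0.02 mark samples with 0 reads. The 30 genes were chosen with no overlap between the 2 lines. They run from FA2H at 7.17 to 8.88 CPM in R109K to LUM at 0.194 to 0.472 CPM.

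HBD lies in the beta-globin region of chromosome 11, which is next to a cluster of olfactory receptor genes, and OR51B5 lies in the same stretch. Between positions 5200000 and 5400000 of chromosome 11 in GRCh37, 4 genes were tested and all 4 were lower in R109K, against 7.23% of all tested genes. HBD and OR51B5 had already been taken for their falls, so their direction here was fixed in advance. HBD read 0.292, 1.96 and 1.19 CPM in R109K and 12.2, 10.2 and 14.1 CPM in pTRE. OR51B5 read 0.843, 0.727 and 1.02 CPM in R109K and 4.75, 5.62 and 4.7 CPM in pTRE (log2 fold change -2.54 ± 0.19, edgeR adjusted p = 2.39e-06). HBE1 and OR51B4, chosen after their values were seen, had log2 fold changes of -2.29 and -1.79 (edgeR adjusted p = 0.000201 and 0.00561). The pTRE samples were above the R109K samples for each of the 4, at levels of at most 14.1 CPM. They were also above all WT and KK samples for each of the 4. Over all tested genes, 22.9% were lower in R109K without overlap. Globin genes are close copies and the gene models of this stretch overlap, so the division of reads among them is uncertain.

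Gene groups were set beside these background shares of 10.0% higher and 7.23% lower. Shares of higher genes were 80% of the 5 CDK inhibitors and 53.8% of both the mitosis list and the list of G1 and S phase, and shares of lower genes reached 45.5% of laminins, 42.9% of matrix proteases and 41.2% of collagens, as the plot of list shares shows.

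**Figure D2:**
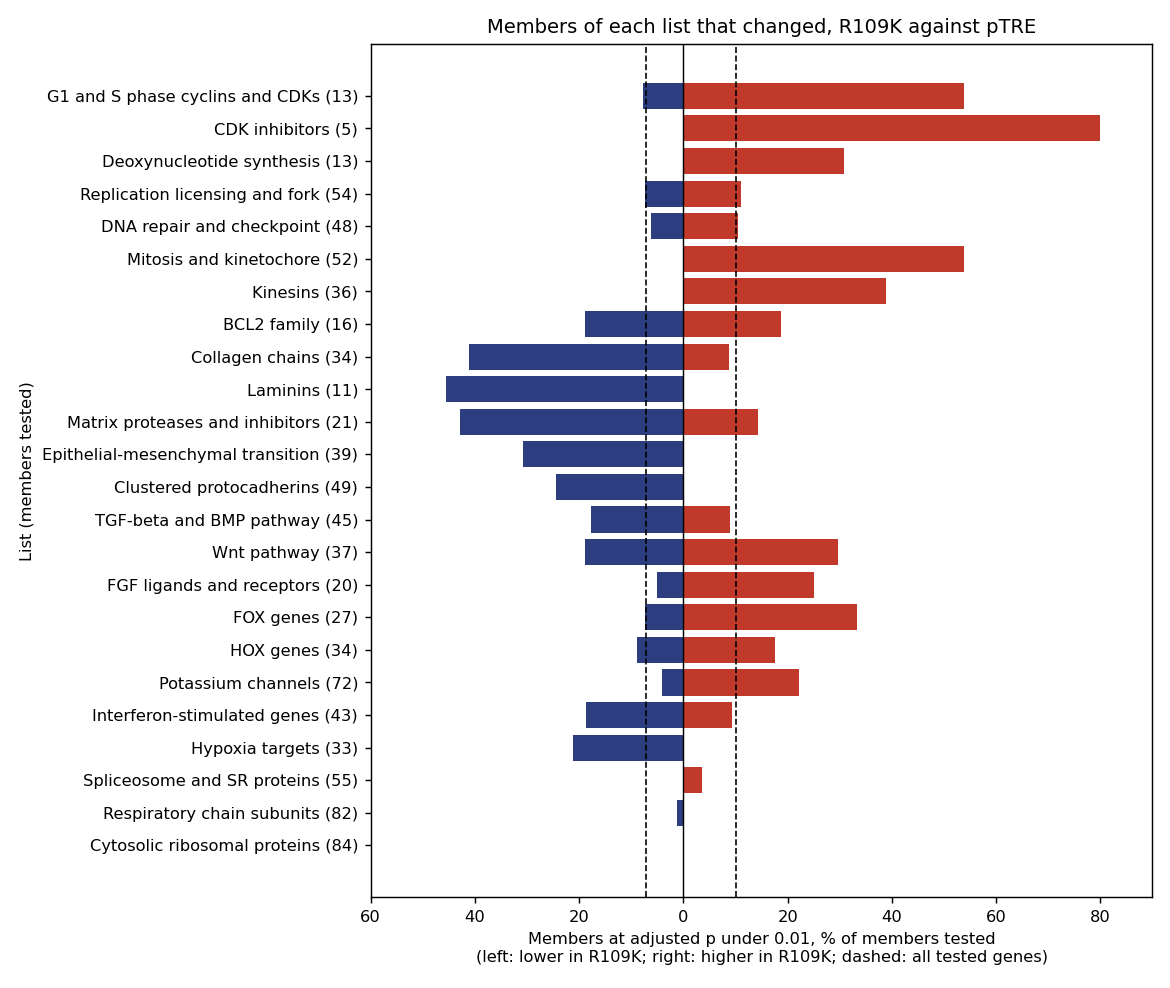
Share of tested members of 24 gene lists that were higher or lower in R109K than in pTRE at an adjusted p under 0.01, in percent; dashed lines mark the shares of all tested genes, 10.0% higher and 7.23% lower. Mitosis genes reach 53.8% higher, and collagen chains reach 41.2% lower.

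The E2F family itself moved in part. In the E2F and DP list 4 of 10 tested members rose (40.0%) and 1 fell (10.0%), with a median log2 fold change of 0.19. The rises include E2F1 itself, whose induction defines the comparison. E2F7, an atypical repressor that is itself an E2F target, read 196, 154 and 164 CPM in R109K and 73, 73.9 and 63.5 CPM in pTRE, and its log2 fold change was 1.29 ± 0.17 (edgeR adjusted p = 3.64e-05). E2F8, its close relative, had a log2 fold change of 1.04 ± 0.12 and the activator E2F2 one of 0.61 ± 0.08. E2F5, a repressor that works with RBL2, fell by 1.08 on the log2 scale, from 6.11, 6.92 and 5.51 CPM in pTRE to 2.69, 2.87 and 3.23 CPM in R109K. The replicates of the 2 lines did not overlap for any of these 4 genes. Of 11 pocket proteins and members of the MuvB complex, which with B-MYB and FOXM1 drives mitotic genes, 2 rose, LIN54 (log2 fold change 0.91 ± 0.12) and FOXM1 (0.53 ± 0.08). MYBL2 itself had a log2 fold change of 0.23 ± 0.09 (edgeR adjusted p = 0.154). FOXM1 (adjusted p up to 0.0126 by edgeR) lost the call without pTRE replicate 1 or R109K replicate 3.

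Cyclins of G1 and S phase rose together with inhibitors of their kinases. In the G1 and S phase list 7 of 13 tested members rose (53.8%) and 1 fell (7.69%), with a median log2 fold change of 0.74. The counts were 7 and 1 whichever of the 6 libraries was left out. CCNE2, a cyclin that activates CDK2 at the start of S phase, read 88.8, 78 and 74.5 CPM in R109K and 20.3, 18.8 and 18.8 CPM in pTRE, and its log2 fold change was 2.06 ± 0.17 (edgeR adjusted p = 5.14e-07). CCNE1, its close relative, read 247, 269.6 and 256 CPM in R109K and 83.4, 83.7 and 97.7 CPM in pTRE (log2 fold change 1.54 ± 0.10). SKP2, the ubiquitin ligase subunit that marks CDKN1B for destruction, read 191, 175 and 188 CPM in R109K and 74.5, 83.4 and 75.3 CPM in pTRE (log2 fold change 1.25 ± 0.10). All R109K samples were above all pTRE samples for these genes. CCND3 (log2 fold change 1.75 ± 0.17), CCNA2 (0.76 ± 0.10), the phosphatase CDC25A (0.74 ± 0.09) and DBF4 (0.74 ± 0.10), which activates the CDC7 kinase, also rose. The D-type cyclin CCND1 was the member that fell, from 189.9, 216 and 202 CPM in pTRE to 129, 129 and 133 CPM in R109K (log2 fold change -0.64 ± 0.08, edgeR adjusted p = 0.000345). Of the 5 tested CDK inhibitors, 4 rose. CDKN2C, an inhibitor of CDK4 and CDK6, read 180.1, 188 and 157 CPM in R109K and 42.3, 39.5 and 47.9 CPM in pTRE (log2 fold change 2.02 ± 0.18). CDKN2D of the same family (1.42 ± 0.20), CDKN1B (1.05 ± 0.11), which binds the complexes of CDK2, and CDKN1A of the same family as CDKN1B (0.68 ± 0.11) were the others. Their R109K and pTRE replicates did not overlap.

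Enzymes of deoxynucleotide supply included large rises, whereas the shares of changed replication genes were close to those of all tested genes. In the deoxynucleotide list 4 of 13 tested members rose (30.8%), with a median log2 fold change of 0.20. RRM2, the small subunit of ribonucleotide reductase, read 2107, 2094 and 1897 CPM in R109K and 434, 396 and 424 CPM in pTRE, and its log2 fold change was 2.28 ± 0.11 (edgeR adjusted p = 5.09e-08). DCK, a salvage kinase for deoxynucleosides, read 191, 173 and 142 CPM in R109K and 74, 66.6 and 56 CPM in pTRE (log2 fold change 1.36 ± 0.20). SAMHD1, which breaks deoxynucleotides down, had a log2 fold change of 0.87 ± 0.14 and RRM1, the large subunit, one of 0.59 ± 0.12. TYMS, the thymidylate synthase and a classical E2F target, had a log2 fold change of 0.16 ± 0.12 (edgeR adjusted p = 0.388). In the replication list 6 of 54 tested members rose (11.1%) and 4 fell (7.41%), with a median log2 fold change of 0.05. None of these changes exceeded 2-fold. The largest were falls of MCM5, a subunit of the replicative helicase, from 184, 203 and 221 CPM in pTRE to 108, 98.8 and 114 CPM in R109K (log2 fold change -0.92 ± 0.09), and of MCM6 (-0.63 ± 0.12), and rises of RECQL4 (0.79 ± 0.14), a helicase of origin firing, and ASF1B (0.74 ± 0.10), a histone chaperone. MCM5 was lower in all R109K samples than in any pTRE sample. In the DNA repair list 5 of 48 tested members rose (10.4%) and 3 fell (6.25%), with a median log2 fold change of 0.00. FANCA, BARD1 and RAD51AP1 were among those that rose and RMI2 among those that fell, with log2 fold changes from -0.83 (RMI2) to 0.83 (FANCA). CHEK2, a checkpoint kinase of this list named after its values were seen, had a log2 fold change of 0.33 ± 0.09 (edgeR adjusted p = 0.0365). Of the replication list 2 were higher without pTRE replicate 2 or 3 or R109K replicate 1 and 3 were higher without R109K replicate 3, against 6 with all 6. Of the replication list 2 were lower without R109K replicate 1 or 2, against 4 with all 6. Of the DNA repair list 2 were higher without pTRE replicate 3 or R109K replicate 1 and 3 were higher without pTRE replicate 1 or 2 or R109K replicate 3, against 5 with all 6. Of the DNA repair list 0 were lower without R109K replicate 1 and 1 was lower without pTRE replicate 2 or R109K replicate 3, against 3 with all 6. RRM1 (adjusted p up to 0.0239 by edgeR) lost the call without pTRE replicate 2 or 3 or R109K replicate 1 or 2. MCM6 (adjusted p up to 0.0131) lost the call without pTRE replicate 1 or R109K replicate 1, 2 or 3. FANCA (adjusted p up to 0.0368) and BARD1 (adjusted p up to 0.0386) lost the call without any 1 library but R109K replicate 2. RAD51AP1 (adjusted p up to 0.0111) lost the call without pTRE replicate 3 or R109K replicate 1. RMI2 (adjusted p up to 0.0152) lost the call without R109K replicate 1.

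Promoters of several of these genes carry the sequence that E2F proteins are known to bind. The words TTTCCCGC, TTTGGCGC, TTTCGCGC and TTTGCCGC were searched on both strands of GRCh37 from 250 bases before to 50 bases after the start of each gene's canonical transcript. The words can overlap when they lie on opposite strands. Of the 15553 tested genes with such a window, 748 (4.81%) held at least 1 word. The share was 44.4% of the replication list (24 of 54), 60% of the E2F family (6 of 10) and 3.85% of the mitosis list (2 of 52). Among up-regulated transcripts it was 5.72% (42 of 734) and among down-regulated ones 1.97% (8 of 407). The stretches below are shown because their genes include both rises and falls, with the words in capitals and each gene read along its own strand.
CDC25A, chr3:48229918-48229977 (minus strand): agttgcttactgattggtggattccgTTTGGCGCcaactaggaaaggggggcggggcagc
DCK, chr4:71859361-71859415 (plus strand): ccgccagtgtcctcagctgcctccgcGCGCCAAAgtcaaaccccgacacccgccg
TP73, chr1:3568830-3568878 (plus strand): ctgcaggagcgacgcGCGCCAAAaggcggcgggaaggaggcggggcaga
MCM5, chr22:35795908-35795967 (plus strand): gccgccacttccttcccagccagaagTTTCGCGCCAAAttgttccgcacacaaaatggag
MCM6, chr2:136634132-136634191 (minus strand): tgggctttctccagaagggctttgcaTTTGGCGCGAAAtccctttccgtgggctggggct
The first 3 genes rose and MCM5 and MCM6 fell. The stretches printed for MCM5 and MCM6 hold 2 overlapping words each, and their whole 300-base windows hold 3 and 4. A word is a match of letters and not a bound site.

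Genes of mitosis were higher in R109K in a large share, each by a small amount. In the mitosis list 28 of 52 tested members rose (53.8%), with a median log2 fold change of 0.49. Of this list edgeR called 0 lower, with 0 lower at an unadjusted p under 0.05 and 0 by DESeq2. All 52 log2 fold changes were above 0, from 0.06 to 1.06, and 1 passed the 2-fold threshold. SPC25, a kinetochore subunit that binds microtubules, read 111, 118 and 105 CPM in R109K and 64.6, 44.4 and 51.6 CPM in pTRE, and its log2 fold change was 1.06 ± 0.15 (edgeR adjusted p = 7.66e-05). ANLN, the ring protein anillin of cell division, read 813, 648 and 715 CPM in R109K and 385, 373 and 366 CPM in pTRE (log2 fold change 0.95 ± 0.12). NCAPG, a condensin subunit, read 173, 137 and 145 CPM in R109K and 97.7, 85.8 and 87.2 CPM in pTRE (log2 fold change 0.75 ± 0.13). For these 3 genes every R109K sample was above every pTRE sample, by modest margins. ESPL1 (0.75 ± 0.16), the protease separase, and PTTG1 (0.73 ± 0.20), its inhibitor securin, were next in size. In the kinesin list 14 of 36 tested members rose (38.9%), with a median log2 fold change of 0.33. KIF18B, a mitotic kinesin, had a log2 fold change of 0.80 ± 0.11, whereas KIF5C (1.36 ± 0.12), the largest rise of the family, is a motor of axonal transport. In the centromere protein list 6 of 19 tested members rose (31.6%), with a median log2 fold change of 0.38. CENPP (1.35 ± 0.16) and CENPT (0.79 ± 0.11) led that family. Of the mitosis list 12 were higher without R109K replicate 1 and 15 were higher without pTRE replicate 2 and 16 were higher without pTRE replicate 3, against 28 with all 6. Of the kinesin list 7 were higher without R109K replicate 1 and 8 were higher without pTRE replicate 2 or 3 or R109K replicate 3, against 14 with all 6. The WT and KK comparisons share the pTRE samples, and in each of them 18 of the 52 mitosis genes changed, with median log2 fold changes of 0.28 in WT and 0.41 in KK. In the direct test 0 of the 52 differed between R109K and WT or between R109K and KK by edgeR at an adjusted p under 0.01. At an unadjusted p under 0.05, 17 were above WT and 7 above KK, and DESeq2 called 2 against WT and 0 against KK. ESPL1 (adjusted p up to 0.0154 by edgeR) lost the call without pTRE replicate 1 or R109K replicate 1. PTTG1 (adjusted p up to 0.0317) lost the call without any 1 library but R109K replicate 3.

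**Figure D3:**
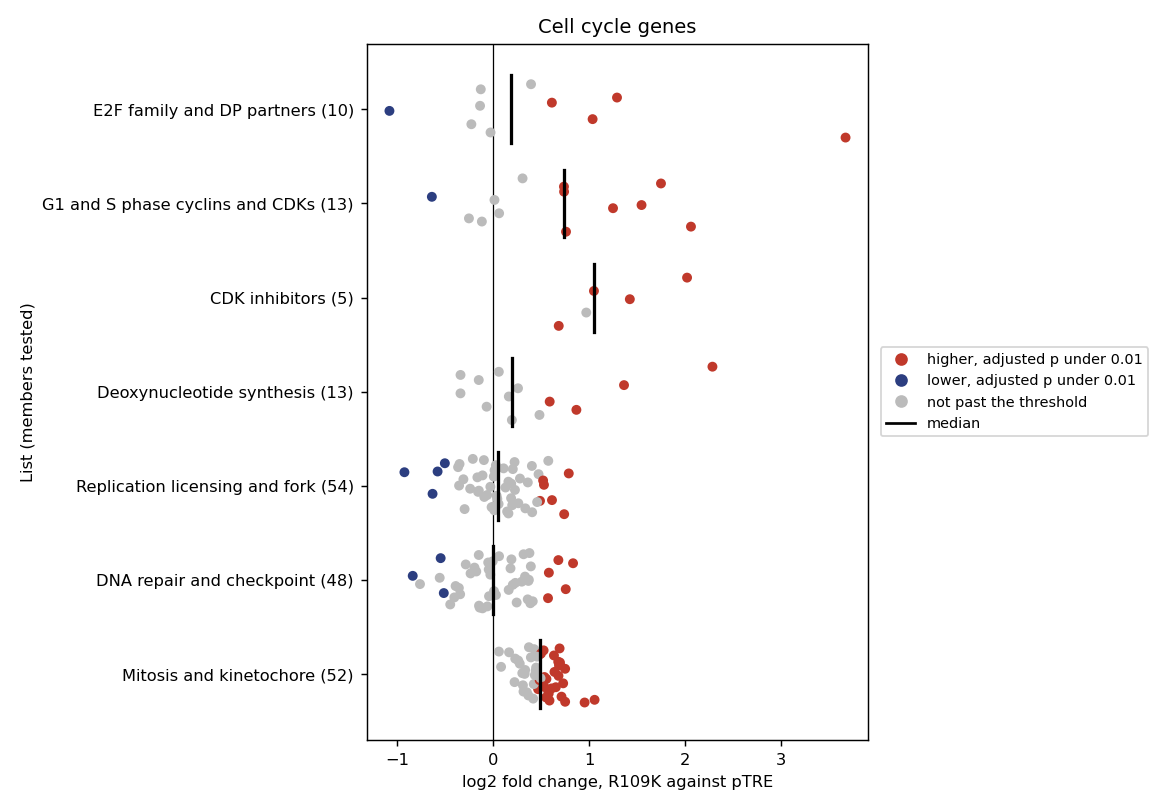
Log2 fold changes of R109K against pTRE for the members of 7 cell cycle lists, 1 dot per gene. At an adjusted p under 0.01, red dots are higher and blue dots lower in R109K, and grey dots did not pass. Mitosis genes lie between 0.06 and 1.06, replication genes spread on both sides of 0 around a median of 0.05, and RRM2 and CCNE2 exceed 2.

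Genes of cell death moved in both directions. TP73, a transcription factor known as a direct E2F1 target, read 91, 80.6 and 89.9 CPM in R109K and 13.8, 17.1 and 20.9 CPM in pTRE, and its log2 fold change was 2.34 ± 0.14 (edgeR adjusted p = 6.75e-08). PPP1R13B, a cofactor in the induction of death genes, had a log2 fold change of 0.97 ± 0.14 and MDM2, a ubiquitin ligase, one of 0.65 ± 0.18. In the BCL2 family list 3 of 16 tested members rose (18.8%) and 3 fell (18.8%), with a median log2 fold change of 0.18. BCL2, the founding inhibitor of mitochondrial death, read 30.9, 24.8 and 23 CPM in R109K and 5.58, 7.3 and 4.3 CPM in pTRE (log2 fold change 2.2 ± 0.22). HRK (1.4 ± 0.13) and BCL2L11 (1.1 ± 0.10), BH3-only activators of death, also rose, and BMF (-1.09 ± 0.16) of the same class fell. So did BCL2L2 (-0.59 ± 0.09), a survival protein, and BOK (-0.61 ± 0.12), a pro-apoptotic one. Of the caspase and apoptosome genes, APAF1 (0.80 ± 0.25), the scaffold of the apoptosome, rose and CASP8 (-0.55 ± 0.09), an initiator caspase, fell. Of 15 death receptors and TNF ligands, NGFR (1.22 ± 0.16) rose, and TNFRSF9 (-1.82 ± 0.22), TNFSF9 (-0.81 ± 0.18) and TNFRSF1A (-0.65 ± 0.13) fell. Among 28 autophagy genes the kinase ULK2 (1.28 ± 0.27) and DRAM1 (0.50 ± 0.08) rose and WIPI1 (-1.01 ± 0.11) fell. MDM2 (adjusted p up to 0.0503 by edgeR) lost the call without any 1 of the 6 libraries. BOK (adjusted p up to 0.0164) lost the call without any 1 library but pTRE replicate 1. APAF1 (adjusted p up to 0.0336) lost the call without any 1 library but R109K replicate 2. TNFSF9 (adjusted p up to 0.0241) lost the call without pTRE replicate 1 or 3 or R109K replicate 1 or 3. TNFRSF1A (adjusted p up to 0.0175) lost the call without pTRE replicate 3 or R109K replicate 1. DRAM1 (adjusted p up to 0.0172) lost the call without pTRE replicate 2 or 3 or R109K replicate 1 or 2.

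Genes of the extracellular matrix were lower in R109K in shares far above that of all tested genes. In the collagen list 3 of 34 tested members rose (8.82%) and 14 fell (41.2%), with a median log2 fold change of -0.68. COL1A1, the main chain of bone collagen, read 931, 786 and 809.8 CPM in R109K and 3312, 3279.8 and 4079 CPM in pTRE, and its log2 fold change was -2.08 ± 0.13 (edgeR adjusted p = 1.53e-07). COL5A1, a chain that starts collagen fibrils, read 108.6, 68.4 and 105 CPM in R109K and 294, 301 and 434 CPM in pTRE (log2 fold change -1.87 ± 0.27). COL3A1 read 6.45, 5.16 and 2.78 CPM in R109K and 29.7, 27.1 and 15.8 CPM in pTRE (log2 fold change -2.32 ± 0.42). In none of these fibrillar chains did an R109K sample reach the lowest pTRE sample. COL11A1 (-2.2 ± 0.30) and COL2A1 (-2.28 ± 0.53) were the other largest falls. The 3 collagens that rose, COL15A1 (1.7 ± 0.36), COL13A1 (0.69 ± 0.14) and COL22A1 (0.51 ± 0.12), were named after their values were seen. Of 11 laminins, 5 fell, led by LAMA4 (-2.01 ± 0.24), LAMB2 (-1.12 ± 0.15) and LAMA2 (-1.0 ± 0.14). In the matrix protease list 3 of 21 tested members rose (14.3%) and 9 fell (42.9%), with a median log2 fold change of -0.60. MMP2, a gelatinase, read 75.9, 67.3 and 78 CPM in R109K and 207, 200.1 and 227 CPM in pTRE (log2 fold change -1.52 ± 0.10). MMP19 (-1.36 ± 0.09), the membrane protease MMP14 (-1.13 ± 0.12) and TIMP3 (-1.32 ± 0.18), an inhibitor bound to the matrix, fell, and MMP10 (2.52 ± 0.39) and MMP15 (1.29 ± 0.14) rose. Their R109K and pTRE replicates did not overlap. Of the collagen list 0 were higher without pTRE replicate 1 and 1 was higher without pTRE replicate 2 or R109K replicate 1 or 3, against 3 with all 6. COL2A1 (adjusted p up to 0.0253 by edgeR) lost the call without any 1 library but R109K replicate 1. COL15A1 (adjusted p up to 0.019) lost the call without pTRE replicate 1 or 3 or R109K replicate 1 or 3. COL13A1 (adjusted p up to 0.015) lost the call without pTRE replicate 1 or 2. COL22A1 (adjusted p up to 0.0537) lost the call without any 1 library but pTRE replicate 3.

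Genes of the mesenchymal state and of the osteoblast lineage included falls and few rises. In the epithelial-mesenchymal transition list 12 of 39 tested members fell (30.8%), with a median log2 fold change of -0.40. Of this list edgeR called 0 higher, with 4 higher at an unadjusted p under 0.05 and 0 by DESeq2. This list shares members with the protease list. It held 10 of 26 mesenchymal genes and 2 of 8 epithelial genes among those lower, and none of its 5 tested transcription factors passed the test. SPARC, a collagen-binding protein of bone, read 800.2, 795 and 872 CPM in R109K and 1664, 1387 and 1787 CPM in pTRE (log2 fold change -0.97 ± 0.16, edgeR adjusted p = 0.000374). Of 13 tested osteoblast genes, 4 fell and 2 rose. RUNX2, the master regulator of osteoblasts, read 9.43, 7.78 and 10 CPM in R109K and 18.8, 15.1 and 17.1 CPM in pTRE (log2 fold change -0.90 ± 0.16). SPP1 (-1.28 ± 0.20), the bone protein osteopontin, fell with COL1A1 and RUNX3, and MSX2 (0.90 ± 0.15) and BMP2 (0.80 ± 0.16) rose. The sums of mesenchymal and epithelial markers given above, which contain some of the same genes, were both lower in R109K, and their part in these counts was not tested. Of the epithelial-mesenchymal transition list 7 were lower without pTRE replicate 2 or R109K replicate 2 or 3, against 12 with all 6. Of the osteoblast list 1 was higher without pTRE replicate 2 or R109K replicate 1, against 2 with all 6. BMP2 (adjusted p up to 0.0141 by edgeR) lost the call without pTRE replicate 2 or R109K replicate 1.

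**Figure D4:**
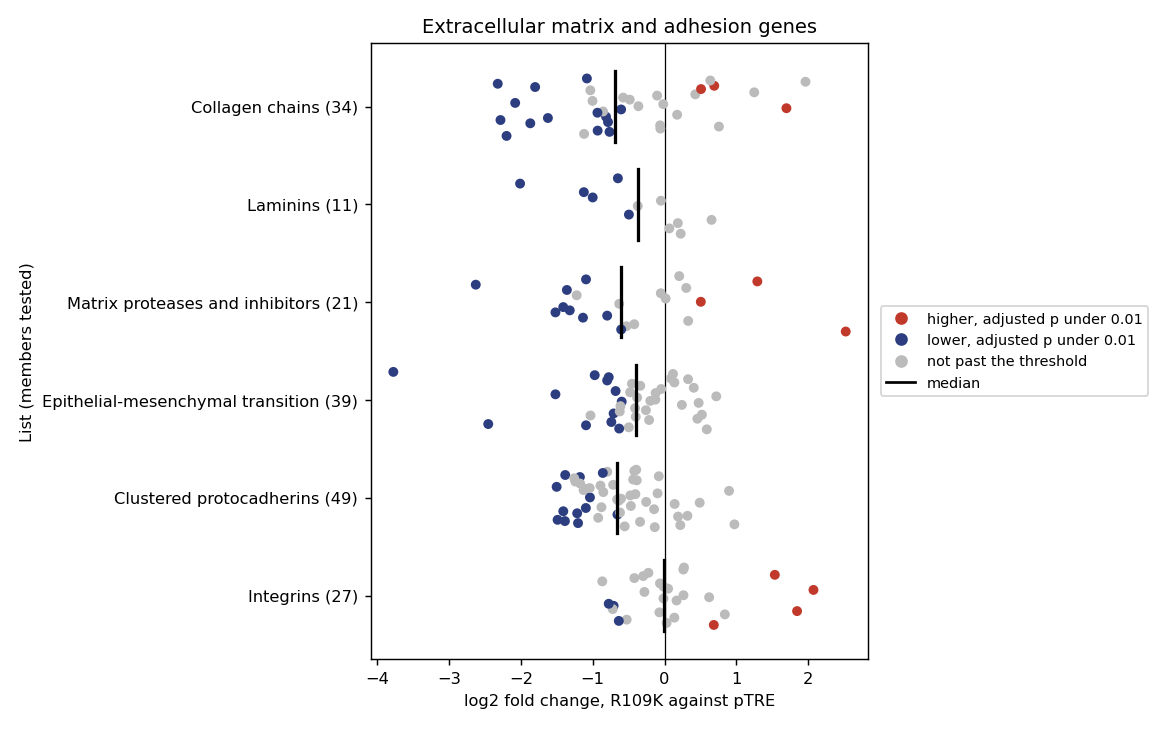
Log2 fold changes of R109K against pTRE for collagens, laminins, matrix proteases, genes of epithelial-mesenchymal transition, clustered protocadherins and integrins, 1 dot per gene. At an adjusted p under 0.01, red dots are higher and blue dots lower in R109K, and grey dots did not pass. Collagens reach -2.32 (COL3A1) and no clustered protocadherin is red, whereas integrins lie on both sides of 0.

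Adhesion receptors were divided by family. In the clustered protocadherin list 12 of 49 tested members fell (24.5%), with a median log2 fold change of -0.66. Of this list edgeR called 0 higher, with 1 higher at an unadjusted p under 0.05 and 0 by DESeq2. PCDHB6 (-1.5 ± 0.20), PCDHB14 (-1.49 ± 0.23), PCDHB11 (-1.41 ± 0.29) and PCDHB12 (-1.38 ± 0.19), adhesion receptors encoded in a single cluster, were among the largest falls. PCDHB14 read 3.95, 2.72 and 4.14 CPM in R109K and 12.8, 8.02 and 9.51 CPM in pTRE. These genes are close copies in neighbouring positions, so the division of reads among them is uncertain. In the integrin list 4 of 27 tested members rose (14.8%) and 3 fell (11.1%), with a median log2 fold change of -0.01. ITGB4, a chain of the laminin receptor of hemidesmosomes, read 48.6, 39.4 and 49.4 CPM in R109K and 9.46, 9.2 and 14 CPM in pTRE (log2 fold change 2.07 ± 0.18, edgeR adjusted p = 6.11e-07). ITGA11 (1.84 ± 0.26) and ITGA2 (1.54 ± 0.33), both collagen receptor chains, rose as well, and ITGB3 (-0.78 ± 0.16) and ITGA5 (-0.71 ± 0.09), of receptors for fibronectin and related ligands, fell. Semaphorins and plexins, guidance cues and their receptors, split evenly, with 5 of 27 higher and 5 lower. PLXNA2 (1.99 ± 0.21) was the largest rise and SEMA3B (-1.99 ± 0.16) and SEMA3G (-1.95 ± 0.21) the largest falls. Of the clustered protocadherin list 6 were lower without pTRE replicate 2 or R109K replicate 2 or 3 and 7 were lower without pTRE replicate 1 or 3, against 12 with all 6. Of the integrin list 1 was lower without pTRE replicate 1 or R109K replicate 2, against 3 with all 6. ITGB3 (adjusted p up to 0.0287 by edgeR) lost the call without pTRE replicate 1 or 2 or R109K replicate 2 or 3.

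Ligands and receptors of growth factor pathways changed in both directions. Of 20 FGF genes, 5 rose and 1 fell. FGF4, a ligand of early embryos, read 2.07, 1.71 and 1.31 CPM in R109K and 0.0826, 0 and 0.0367 CPM in pTRE (log2 fold change 5.3 ± 0.80, edgeR adjusted p = 2.49e-06). In pTRE it had 3 reads over the 3 samples, and the ratio of the lines was 44.8 (exact 95% interval for counting error 15 to 220). FGF5, a secreted ligand, read 24.7, 24.4 and 24.4 CPM in R109K and 5.2, 3.8 and 3.75 CPM in pTRE (log2 fold change 2.53 ± 0.14). The receptor FGFR3 read 27.8, 25.9 and 25.8 CPM in R109K and 6.4, 8.93 and 9.26 CPM in pTRE (log2 fold change 1.69 ± 0.14). All R109K samples lay above all pTRE samples for the 3 genes. The PEA3 factors, ETS proteins downstream of FGF and ERK signals, divided: ETV4 (1.19 ± 0.10) and ETV5 (1.09 ± 0.11) rose, and ETV1 fell. ETV1 read 0.357, 0.218 and 0.164 CPM in R109K and 0.991, 0.988 and 0.588 CPM in pTRE (log2 fold change -1.75 ± 0.43, edgeR adjusted p = 0.00563). Among feedback genes of the pathway SPRY4 (1.03 ± 0.19) rose. In the EGF family list 4 of 13 tested members rose (30.8%) and 2 fell (15.4%), with a median log2 fold change of 0.29. The receptor EGFR (1.26 ± 0.21) and its ligand TGFA (1.4 ± 0.12) rose together with ERBB4 (2.42 ± 0.64) and AREG (1.03 ± 0.21), and HBEGF (-0.76 ± 0.09) and ERBB3 (-0.87 ± 0.28) fell. EGFR read 56.4, 42.1 and 57.7 CPM in R109K and 18.1, 22.4 and 24.5 CPM in pTRE, without overlap of the lines. Of the EGF family list 2 were higher without pTRE replicate 1, 2 or 3 or R109K replicate 1 or 3, against 4 with all 6. Of the EGF family list 1 was lower without pTRE replicate 1 or 3 or R109K replicate 1 or 2, against 2 with all 6. ETV1 (adjusted p up to 0.0269 by edgeR) lost the call without pTRE replicate 1 or 2 or R109K replicate 2 or 3. SPRY4 (adjusted p up to 0.0104) lost the call without pTRE replicate 3. ERBB4 (adjusted p up to 0.039) lost the call without any 1 library but R109K replicate 2. AREG (adjusted p up to 0.0489) lost the call without any 1 of the 6 libraries. ERBB3 (adjusted p up to 0.0498) lost the call without pTRE replicate 1 or 3 or R109K replicate 1 or 2.

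The Wnt, Notch, TGF-beta and IGF systems each held large changes of single members. In the Wnt list 11 of 37 tested members rose (29.7%) and 7 fell (18.9%), with a median log2 fold change of 0.06. DKK2, a secreted modulator of Wnt receptors, read 1.59, 1.53 and 1.92 CPM in R109K and 0.165, 0.152 and 0.331 CPM in pTRE (log2 fold change 2.92 ± 0.38, edgeR adjusted p = 5.51e-05). RNF43, a ligase that removes Wnt receptors, read 2.5, 1.71 and 3.44 CPM in R109K and 11.4, 7.14 and 13 CPM in pTRE (log2 fold change -2.05 ± 0.43). ROR1, a Wnt5a receptor, fell (-1.84 ± 0.21), whereas the feedback inhibitor NKD1 (1.49 ± 0.12) rose. In the Notch list the ligands DLL1 (1.55 ± 0.21) and JAG2 (1.3 ± 0.13) and the target HEY1 rose, and LFNG (-1.64 ± 0.18), which modifies the receptors, fell. HEY1 read 35.1, 38.2 and 29.6 CPM in R109K and 4.3, 5.32 and 7.02 CPM in pTRE (log2 fold change 2.63 ± 0.27), with all R109K samples above all pTRE samples. In the TGF-beta and BMP list 4 of 45 tested members rose (8.89%) and 8 fell (17.8%), with a median log2 fold change of -0.20. FST, the activin antagonist follistatin, read 99.3, 112 and 91.7 CPM in R109K and 25.7, 24.9 and 24.8 CPM in pTRE (log2 fold change 2.01 ± 0.14). The ligands INHBE (-1.57 ± 0.32) and TGFB3 (-1.48 ± 0.22) and the inhibitor FSTL3 (-1.3 ± 0.18) fell, and BMP6 (1.35 ± 0.18) rose. In the IGF system IGFBP7 (1.65 ± 0.35), IGFBP4 (1.54 ± 0.15) and the imprinted noncoding RNA H19 (1.19 ± 0.17) rose, against the fall of IGFBP5 given above. The R109K samples of H19 were 11.5, 11.7 and 11.3 CPM against 4.05, 5.32 and 5.77 CPM in pTRE. Of the TGF-beta and BMP list 2 were higher without R109K replicate 1, against 4 with all 6.

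Among ion channels and other genes of excitable cells, calls in both directions were found. In the potassium channel list 16 of 72 tested members rose (22.2%) and 3 fell (4.17%), with a median log2 fold change of 0.47. KCNG3, a modifier subunit, read 13.5, 11 and 11.8 CPM in R109K and 1.57, 2.01 and 1.69 CPM in pTRE (log2 fold change 2.78 ± 0.20, edgeR adjusted p = 2.01e-07). KCNB2 (2.35 ± 0.41), a voltage-gated subunit, and KCNK10 (2.04 ± 0.27), a 2-pore channel, were next. KCNIP1, a calcium-binding partner of voltage-gated channels, read 5.54, 7.3 and 4.46 CPM in R109K and 1.49, 1.71 and 1.8 CPM in pTRE (log2 fold change 1.79 ± 0.22). No pTRE sample reached the R109K samples in these genes. In the calcium and sodium channel list 8 of 32 tested members rose (25%) and 3 fell (9.38%), with a median log2 fold change of 0.13. The pore-forming calcium channel genes CACNA1D (2.64 ± 0.35), CACNA1E (2.36 ± 0.38) and CACNA1C (2.05 ± 0.24) rose, and SCN2B (-2.09 ± 0.23), a sodium channel subunit, fell. In the neuronal list 9 of 43 tested members rose (20.9%) and 4 fell (9.3%), with a median log2 fold change of 0.00. At an unadjusted p under 0.05 the neuronal list held 12 higher and 12 lower, and DESeq2 called 9 and 7. SV2B, a synaptic vesicle protein, read 1.91, 1.2 and 1.02 CPM in R109K and 0.0826, 0.076 and 0 CPM in pTRE (log2 fold change 4.62 ± 0.90). RELN (3.05 ± 0.68), the guidance protein reelin, SYT7 (1.81 ± 0.11), a synaptotagmin, and LRRC4 (1.76 ± 0.46), a synaptic adhesion protein, also rose, and TUBB3 (-1.44 ± 0.16), the neuronal beta-tubulin, fell. The summed level of 6 neuronal markers, 122 to 134 CPM in pTRE and 142 to 161 CPM in R109K, did not overlap between the lines, and its part in these counts was not tested. Of the neuronal list 2 were lower without R109K replicate 1 or 2, against 4 with all 6. LRRC4 (adjusted p up to 0.0181 by edgeR) lost the call without pTRE replicate 1, 2 or 3 or R109K replicate 1.

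Transcription factor families of development moved unevenly. In the HOX list 6 of 34 tested members rose (17.6%) and 3 fell (8.82%), with a median log2 fold change of 0.24. HOXA13 (2.02 ± 0.20), HOXA3 (1.72 ± 0.16) and HOXA4 (1.51 ± 0.14) of the HOXA cluster rose, and HOXD10 (-2.17 ± 0.23) and HOXD11 (-2.31 ± 0.32) of the HOXD cluster fell. HOXD10 read 1.33, 0.981 and 1.23 CPM in R109K and 5.99, 4.86 and 5.14 CPM in pTRE. HOXA13 read 9.27, 9.45 and 8.31 CPM in R109K and 2.56, 1.79 and 2.31 CPM in pTRE, with no overlap in either gene. In the FOX list 9 of 27 tested members rose (33.3%) and 2 fell (7.41%), with a median log2 fold change of 0.30. FOXJ1, the master factor of motile cilia, read 2.01, 2.43 and 1.27 CPM in R109K and 0, 0.152 and 0.11 CPM in pTRE (log2 fold change 4.34 ± 0.72, edgeR adjusted p = 4.04e-05). FOXA3 (2.11 ± 0.27), a liver and gut factor, and FOXO1 (1.16 ± 0.25), a factor restrained by insulin signals, rose too. In the keratin list 5 of 20 tested members rose (25%) and 2 fell (10.0%), with a median log2 fold change of 0.05. KRT20 (3.4 ± 0.82) and KRT15 (2.83 ± 0.37) were the largest. In the C2H2 zinc finger list 11 of 472 tested members rose (2.33%) and 32 fell (6.78%), with a median log2 fold change of -0.04. Of the C2H2 zinc finger list 6 were higher without R109K replicate 1 and 7 were higher without pTRE replicate 3, against 11 with all 6. Of the C2H2 zinc finger list 15 were lower without R109K replicate 1 and 17 were lower without pTRE replicate 2 and 18 were lower without R109K replicate 2 and 20 were lower without pTRE replicate 1, against 32 with all 6. Of the FOX list 0 were lower without pTRE replicate 1 or 2 or R109K replicate 1 or 2 and 1 was lower without pTRE replicate 3 or R109K replicate 3, against 2 with all 6. Of the keratin list 0 were lower without pTRE replicate 2 or 3 or R109K replicate 1, 2 or 3 and 1 was lower without pTRE replicate 1, against 2 with all 6.

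Interferon-stimulated and hypoxia genes included falls. In the interferon-stimulated list 4 of 43 tested members rose (9.3%) and 8 fell (18.6%), with a median log2 fold change of -0.21. IFIT1, which binds viral RNA, read 5.61, 6.29 and 8.15 CPM in R109K and 20.4, 15 and 17.6 CPM in pTRE (log2 fold change -1.41 ± 0.21, edgeR adjusted p = 0.000111). BST2, given above, fell further, while CMPK2 rose. OASL (-1.53 ± 0.36) and IFI44L (-1.44 ± 0.30) were also lower. In the hypoxia list 7 of 33 tested members fell (21.2%), with a median log2 fold change of -0.20. Of this list edgeR called 0 higher, with 2 higher at an unadjusted p under 0.05 and 0 by DESeq2. CA12 (-1.4 ± 0.15), a carbonic anhydrase, EGLN3 (-1.17 ± 0.15), a prolyl hydroxylase that marks HIF, and P4HA1 (-1.09 ± 0.26), a collagen prolyl hydroxylase, led the falls. P4HA1 read 73.1, 69.7 and 105 CPM in R109K and 183, 151 and 194 CPM in pTRE. In glycolysis and pyruvate use ALDOC (-2.24 ± 0.30), an aldolase, fell and SLC16A1 (1.19 ± 0.13), a lactate carrier, rose. In fatty acid and ceramide synthesis FA2H rose together with UGT8 (1.06 ± 0.15), which joins galactose to ceramide, and ELOVL7 (1.02 ± 0.17), a fatty acid elongase. Of the interferon-stimulated list 3 were lower without R109K replicate 1 and 4 were lower without pTRE replicate 1 and 5 were lower without pTRE replicate 2 or R109K replicate 2 or 3, against 8 with all 6. Without R109K replicate 1 the higher members of that list numbered 4, more than the lower ones. OASL (adjusted p up to 0.0107 by edgeR) lost the call without R109K replicate 1. IFI44L (adjusted p up to 0.0396) lost the call without pTRE replicate 1 or R109K replicate 1, 2 or 3.

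Several large families of basic cell functions held few or no changed genes. Of 84 cytosolic ribosomal protein genes, edgeR called 0, with 1 higher and 2 lower at an unadjusted p under 0.05 and 0 called by DESeq2. Of 76 mitochondrial ribosomal protein genes, edgeR called 0, with 5 higher and 1 lower at an unadjusted p under 0.05 and 0 called by DESeq2. Of 17 cytosolic aminoacyl-tRNA synthetases, edgeR called 0, with 1 higher and 5 lower at an unadjusted p under 0.05, while DESeq2 called 1 higher and 3 lower. Of 82 respiratory chain subunits 1 was lower, and of 55 genes of the spliceosome and SR proteins 2 were higher. Among 12 arginine methyltransferases and SND1, the reader of methylated arginine, PRMT5 was the member that passed the test. PRMT5 read 80.5, 92.8 and 81.6 CPM in R109K and 112, 127 and 115 CPM in pTRE, and its log2 fold change was -0.47 ± 0.10 (edgeR adjusted p = 0.00803). PRMT1, the enzyme of the arginine replaced in R109K, had a log2 fold change of -0.09 ± 0.20 (edgeR adjusted p = 0.77) and SND1 one of -0.13 ± 0.08 (adjusted p = 0.392). The study also singled out genes for their alternatively spliced transcripts, and counts per gene do not tell such variants apart. Among these genes KAT2B, an acetyltransferase, had a log2 fold change of 0.70 ± 0.18 and passed. SENP7, a SUMO protease, had a log2 fold change of -0.29 ± 0.16 (edgeR adjusted p = 0.192), and SENP1 of the same family one of 0.49 ± 0.14 (adjusted p = 0.0164). MECOM and SETD2 had log2 fold changes of 0.05 ± 0.09 and -0.02 ± 0.15 (edgeR adjusted p = 0.806 and 0.949). PRMT5 (adjusted p up to 0.0457 by edgeR) and KAT2B (adjusted p up to 0.0328) lost the call without any 1 of the 6 libraries.

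Few transcripts differed between R109K and the other forms of E2F1 in direct tests. In the direct tests by edgeR at an adjusted p under 0.01, 118 of 16625 genes differed between R109K and WT (0.710%), 25 higher (0.150%) and 93 lower (0.559%) in R109K. Between R109K and KK 22 genes differed (0.132%), 9 higher (0.0541%) and 13 lower (0.0782%). A difference over 2-fold as well was found for 57 genes against WT (0.343%) and 15 against KK (0.0902%). With the replicate number as a block, which pairs R109K and KK samples, 10 genes were higher and 15 lower than KK. These counts rested on single libraries. Against WT, the numbers higher and lower were 3 and 4 without R109K replicate 1, 2 and 1 without R109K replicate 2 or 3, 2 and 2 without WT replicate 1, and 63 and 231 without WT replicate 3, while 15 were higher and 64 lower without WT replicate 2, the sample with 58.7% of reads on no gene. Against KK, they were 3 and 2 without R109K replicate 1 or 2, 1 and 0 without R109K replicate 3, 1 and 1 without KK replicate 1, 3 and 8 without KK replicate 2, and 2 and 1 without KK replicate 3. DESeq2 called 127 and 430 against WT and 68 and 187 against KK. E2F1 RNA was lower in R109K than in WT, as given above, and its part in these differences was not tested.

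ETV1 was the gene farthest below both other forms. It read 0.357, 0.218 and 0.164 CPM in R109K, 1.78, 1.77 and 3.18 CPM in WT and 4.05, 2.5 and 3.32 CPM in KK, so R109K stood below pTRE and both other forms stood above it. The log2 difference was -3.15 ± 0.41 from WT (edgeR adjusted p = 0.00259) and -3.69 ± 0.40 from KK (adjusted p = 0.000896). RELN read 6.84, 8.59 and 3.61 CPM in WT, with a log2 difference of -2.82 ± 0.41. LRRC4 read 6.66, 10.8 and 3.29 CPM in WT (log2 difference -1.94 ± 0.39, edgeR adjusted p = 0.00684). FGF4 read 7.16, 4.58 and 4.99 CPM in WT (log2 difference -1.72 ± 0.26). The R109K samples of these genes were all below the WT samples, although RELN, LRRC4 and FGF4 rose against pTRE. FA2H, the largest of the 15 rises given above, read 19.2, 18.8 and 17.5 CPM in KK (log2 difference -1.17 ± 0.16, edgeR adjusted p = 0.00981, and 0.0141 with the replicate block). RUNX3 read 4.77, 4.61 and 4.5 CPM in KK, so its fall was larger in R109K (log2 difference -1.57 ± 0.16, edgeR adjusted p = 0.00191). HS6ST3 rose less in R109K than in KK, which read 9.96, 8.88 and 8.88 CPM (log2 difference -1.01 ± 0.12). GCNT4, LINC01204, SHISA7, SCRT1, AADAC and NR4A3 also rose less than in WT, by log2 differences of -1.51 (NR4A3) to -1.88 (GCNT4). The direct calls were fragile to single libraries. Of the 18 differences from WT named here or after, 15 were lost without R109K replicate 1, 17 without R109K replicate 2, 16 without R109K replicate 3, 15 without WT replicate 1, 1 without WT replicate 2 and 0 without WT replicate 3. Of the 8 differences from KK, 5, 6 and 8 were lost without R109K replicate 1, 2 and 3, and 7, 5 and 6 without KK replicate 1, 2 and 3. ETV1 lost the call against WT without R109K replicate 2 or 3 and that against KK without R109K replicate 3.

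Genes above the other forms included CYP2E1, a cytochrome P450 of ethanol metabolism. CYP2E1 read 1.94, 2.22 and 2.21 CPM in R109K and 0.496, 0.608 and 0.441 CPM in pTRE, 0.463, 0.402 and 0.542 CPM in WT and 0.519, 0.384 and 0.513 CPM in KK, so every R109K sample, and no WT or KK sample, stood above every pTRE sample. The log2 difference was 2.14 ± 0.24 from WT (edgeR adjusted p = 0.00307) and 2.15 ± 0.23 from KK (adjusted p = 0.00459). MEGF6, a secreted or membrane protein with EGF repeats, read 15.8, 14.1 and 21.9 CPM in R109K and 5.45, 4.86 and 7.86 CPM in pTRE and 4.08, 2.83 and 5.13 CPM in KK (log2 difference 2.09 ± 0.29, edgeR adjusted p = 0.00162). GRPR, the receptor of gastrin-releasing peptide, read 3.44, 3.38 and 4.71 CPM in R109K and 0.413, 0.266 and 0.478 CPM in pTRE and 0.926, 1.28 and 0.795 CPM in WT (log2 difference 1.98 ± 0.22). KCNIP1 read 1.57, 2.49 and 2.39 CPM in WT (log2 difference 1.45 ± 0.22). EDN2, the peptide endothelin 2, fell against pTRE but less than in WT, reading 2.92, 5.16 and 6.35 CPM in R109K and 9.34, 9.88 and 15.2 CPM in pTRE and 1.03, 0.964 and 1.59 CPM in WT (log2 difference 1.96 ± 0.45). SSTR5, a somatostatin receptor, was above KK by 2.14 ± 0.28 on the log2 scale (edgeR adjusted p = 0.00981, and 0.0127 with the replicate block). CRYAB, a small heat shock protein, fell less than in KK (1.5 ± 0.31). MAGEB17, TMEM179 and H19 were above WT by log2 differences of 1.75, 1.5 and 1.31. TMEM179 kept the call against WT whichever of the 6 libraries was left out. In the comparison with pTRE, EDN2 (adjusted p up to 0.0431 by edgeR) lost the call without any 1 library but R109K replicate 3. SSTR5 (adjusted p up to 0.0472) lost the call without any 1 of the 6 libraries.

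**Figure D5:**
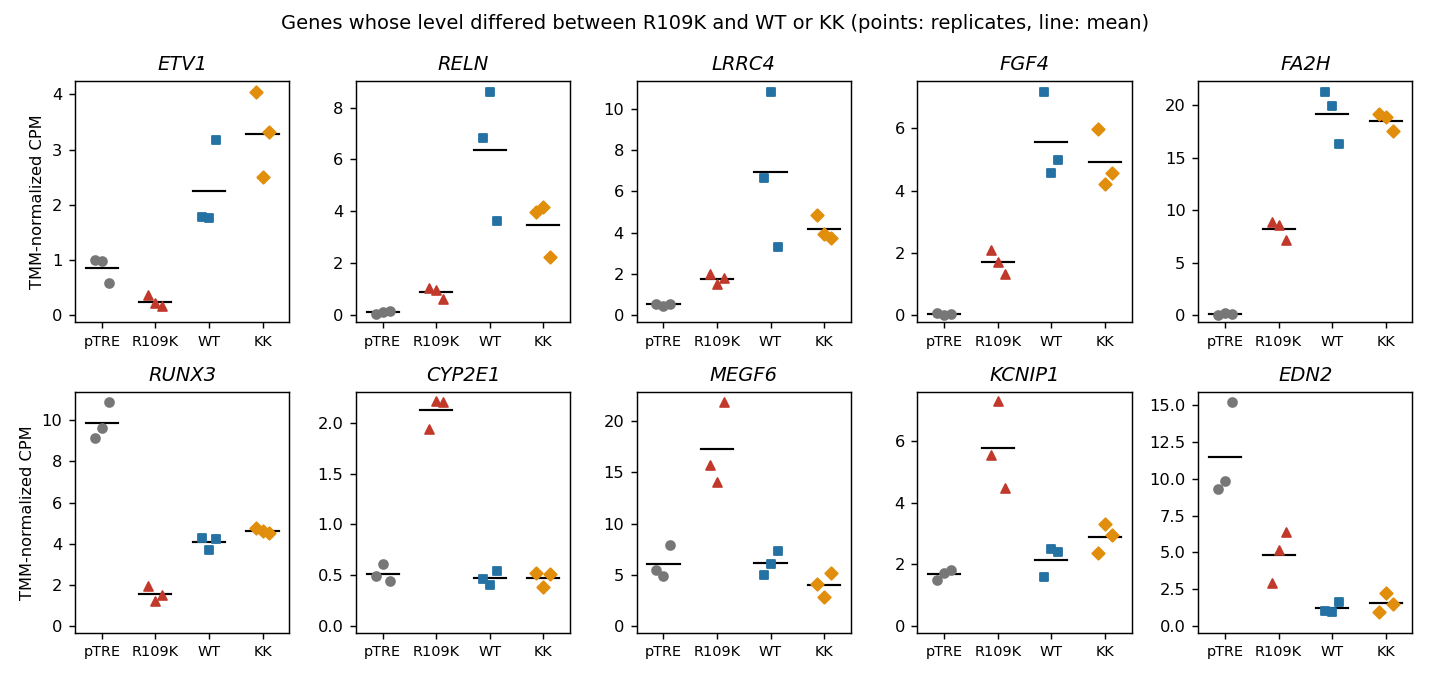
Levels of 10 genes that differed between R109K and WT or KK, as CPM on a linear axis with 1 point per replicate of the 4 lines. ETV1 lies at 0.164 to 0.357 CPM in R109K, below the other 3 lines, and CYP2E1 at 1.94 to 2.22 CPM lies above them.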

How the data were processed

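The authors deposited raw counts, 1 file for each sample with the reads assigned to 25369 genes as whole numbers without normalization; 5 summary lines in each were dropped here. They trimmed reads with Trim Galore 0.4.3 and aligned them to hg19 with STAR 2.5.1, allowing 2 mismatches; the gene annotation and the strand setting of the counting are not given in the sources used here, so reads of overlapping and antisense genes cannot be told apart.

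Tests used edgeR 4.0.16 (R 4.3.3). Of the genes, 22831 had a read and 16625 passed filterByExpr with the 4 lines as groups. After TMM normalization 1 quasi-likelihood model was fitted to all 12 samples, and R109K was compared with pTRE, WT and KK by glmQLFTest with Benjamini-Hochberg adjustment over all tested genes. Genes were called changed at an adjusted p under 0.01 and regulated when also changed over 2-fold, the thresholds of the study. The p-values rest on the spread between biological replicates within each line, estimated jointly over all 12 samples, WT and KK included. They do not measure a spread between separately made lines. Counts were also simulated from each gene's mean over all 12 samples and its estimated spread (16479 genes in the fit). There edgeR recovered 61 of 100 genes changed 2-fold and 82 of 100 changed 4-fold, with 1 false call. A far smaller share of genes changed there than the 17.3% called for R109K against pTRE, so these rates need not hold for the data.

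R109K and KK samples with the same replicate number deviated together (correlations 0.411, 0.470 and 0.294 of deviations from the group means), so the replicate block is given beside that comparison.

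Named genes were E2F1, genes the study names, the 15 largest rises and falls (mean count at least 50, replicates of the lines apart), up to 5 of the largest changes per list (any member of the shorter pathway lists), and the 10 largest differences from WT and KK that were also regulated against pTRE. Genes named to complete a count of 5 or fewer, and CHEK2, are marked as named after their values were seen. The comparison, gene lists and tests were chosen with earlier results of these data known. Promoter windows and gene positions came from the GRCh37 reference and its GENCODE annotation, which covered 15553 of the tested genes. Alternatives were DESeq2 1.42.0, RLE normalization, no filter, at least 10 counts in every sample, only the 6 samples of a contrast, the replicate block, glmTreat against 2-fold, an adjusted p under 0.05, and each sample left out. Fits without WT replicate 2 and without all 4 samples numbered 2 were chosen after seeing the data. Splicing was not analysed here, and some genes and gene lists are not reported here.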

Additional observations from a re-analysis of the deposited data

Results flagged for a closer look

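The effects against pTRE differed between R109K and another form of E2F1 in the direct edgeR test for the genes given here, each also regulated against pTRE. Above WT, the log2 differences of R109K were 2.14 for CYP2E1, 1.98 for GRPR, 1.96 for EDN2, 1.75 for MAGEB17, 1.5 for TMEM179, 1.49 for MEGF6, 1.45 for KCNIP1 and 1.31 for H19. Below WT, they were -3.15 for ETV1, -2.82 for RELN, -1.94 for LRRC4, -1.88 for GCNT4, -1.85 for LINC01204, -1.78 for SHISA7, -1.73 for SCRT1, -1.72 for FGF4, -1.68 for AADAC and -1.51 for NR4A3. Above KK, they were 2.15 for CYP2E1, 2.14 for SSTR5, 2.09 for MEGF6 and 1.5 for CRYAB. Below KK, they were -3.69 for ETV1, -1.57 for RUNX3, -1.17 for FA2H and -1.01 for HS6ST3.

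Adjusted p-values by edgeR ran from 0.000248 (TMEM179) to 0.00904 (EDN2 and LINC01204) against WT, and from 0.000896 (ETV1) to 0.00981 (FA2H) against KK. ETV1 kept the call below KK in every alternative except the test against 2-fold by glmTreat and the fit without R109K replicate 3. Its highest adjusted p over these edgeR fits was 0.0135. TMEM179 kept the call above WT in every alternative except glmTreat and the fit to only the 6 samples. AADAC kept the call below WT except in these and without R109K replicate 2. MEGF6 kept the call above KK except in glmTreat, with only the 6 samples, and without R109K replicate 3 or KK replicate 1. Between 2 and 10 alternatives ended each of the 26 calls. E2F1 RNA was lower in all R109K samples than in all WT samples, and the part of that level in the differences from WT was not tested. Several of these genes were also low, and ETV1, RELN, LRRC4, CYP2E1 and SSTR5 stood near or under 2 CPM in R109K, where single reads weigh most.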

How the results depend on the processing

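Limits come first. Each form of E2F1 was 1 line, so the form and the line cannot be told apart. In simulated counts with few changed genes, 3 replicates gave edgeR most changes of 4-fold but not all of 2-fold. Genes near 1 CPM rest on few reads. For R109K against pTRE, testing the fold change itself against 2-fold with glmTreat left 258 up-regulated and 53 down-regulated transcripts in place of 771 and 425. An adjusted p under 0.05 gave 2539 higher and 2140 lower, and the fit to only the 6 samples gave 1924 lower. Without WT replicate 2, which lies outside this comparison, 1972 were higher and 1620 lower, in place of 1666 and 1202. With 1 sample of the comparison left out, the lower transcripts ranged from 701 (without R109K replicate 1) to 877 (without pTRE replicate 1). They were 759 without R109K replicate 2 and 793 without pTRE replicate 3. DESeq2, RLE normalization and the filters on low counts kept these counts within 1.5 times.

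R109K and pTRE samples with the same replicate number did not deviate together (correlations 0.0559, -0.0870 and 0.0766), so the numbers were not used to pair them, and not every sample correlated best with its own number. With the replicate block, 757 transcripts were up-regulated and 412 down-regulated, and 1642 were higher and 1238 lower. Against WT, the block gave 23 higher and 83 lower, and against KK 10 and 15, and it moved none of these counts by more than 1.5 times.

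The direct counts against WT, 25 higher and 93 lower, moved to 127 and 430 with DESeq2, 42 and 178 without a filter, 16 higher with at least 10 counts in every sample, 1 and 0 with glmTreat, 131 and 430 at an adjusted p under 0.05, and 0 and 0 with only the 6 samples. With 1 sample left out they ranged from 2 to 63 higher and from 1 to 231 lower. Without all 4 samples numbered 2 they were 6 and 11. The direct counts against KK, 9 and 13, moved to 68 and 187 with DESeq2, 15 and 47 without a filter, 4 and 7 with at least 10 counts, 0 and 0 with glmTreat, 51 and 143 at an adjusted p under 0.05, and 2 and 1 with only the 6 samples. With 1 sample left out they ranged from 1 to 3 and from 0 to 8. Without WT replicate 2 they were 25 and 78, and without all 4 samples numbered 2 they were 5 and 6. The causes of these moves were not tested.

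Over the gene lists, 1891 of 2430 counts stayed within 1.5 times, and 1191 of 1296 medians stayed near the value given. Of 5055 values of named genes, 4415 kept their direction and side of the threshold, 629 lost the call, 6 gained it and 5 changed sign. The sign changed for MECOM without pTRE replicate 3 (-0.0038) and without R109K replicate 1 (-0.0067), and for SETD2 without pTRE replicate 2 (0.0763), without R109K replicate 2 (0.0823) and without all 4 samples numbered 2 (0.1782). With 1 sample left out, the log2 fold changes of MECOM ranged from -0.0067 to 0.1358 and those of SETD2 from -0.0890 to 0.0823, and neither gene passed the test in the analysis given. Of 315 called named genes, 231 kept the call whichever of the 6 libraries was left out.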
